A study of Mus musculus with 6 samples.

Results

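Nr4a1, Nr4a2 and Nr4a3 are the 3 members of the NR4A group of orphan nuclear receptors, and they were picked from the deposited expression table by gene symbol alone. Each symbol stood on 1 row, so 3 of the 16060 rows of the table are described here, and all 3 passed the filter on low values that left 13321 genes for testing. The RNA came from the hippocampus of adult male C57BL/6 mice, with 3 libraries labelled Control and 3 labelled MA. Mice of the MA group were injected with methamphetamine (MA) at 5 mg/kg in week 1, 10 mg/kg in week 2 and 15 mg/kg in week 3, and mice of the control group were injected with saline. The sample titles give each library a group and a number, and do not state how many mice went into it. Mice of either group went through the open field and elevated plus maze tests on day 22 and were killed straight after them, so no library comes from a mouse that was left in its home cage that day. The comparison asks how the RNA of each Nr4a gene differs between mice with repeated MA and mice with saline.

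NR4A receptors are transcription factors that bind DNA through a pair of zinc fingers and are active without a known natural ligand, so their activity is set largely by how much of them a cell makes. Their genes are immediate early genes: calcium, cAMP and ERK signals act through CREB and related factors to switch them on within minutes of neuronal firing, without new protein synthesis. In the hippocampus they are known for a part in the consolidation of memory after a learning event, and Nr4a2 is also required for the dopamine neurons of the midbrain. Nr4a1 is also called Nur77, Nr4a2 is also called Nurr1, and Nr4a3 is also called Nor1.

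The 3 genes lie on different chromosomes. In GENCODE release M21 on GRCm38, Nr4a1 (ENSMUSG00000023034) lies on the plus strand at chr15:101254269-101274795, Nr4a2 (ENSMUSG00000026826) on the minus strand at chr2:57106830-57124003 and Nr4a3 (ENSMUSG00000028341) on the plus strand at chr4:48045153-48086447. None of them overlaps another annotated gene. Their annotated transcripts share no stretch of 31 bases with each other, so the reads of the 3 paralogs could be told apart at that length.

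The promoter stretches are shown because all 3 genes carry the same short element many times over, at places a reader can count. The element is TGACG, the core of the cAMP response element (CRE) to which CREB binds. It was searched on both strands, so it reads as TGACG or as CGTCA, and every match is in capitals. The sequences are those of RefSeq on GRCm38.p6, written 5′ to 3′ on the strand of the gene, and they come from windows of 250 bases before to 50 bases after a RefSeq start site.
Nr4a1, chr15:101266596-101266845, plus strand: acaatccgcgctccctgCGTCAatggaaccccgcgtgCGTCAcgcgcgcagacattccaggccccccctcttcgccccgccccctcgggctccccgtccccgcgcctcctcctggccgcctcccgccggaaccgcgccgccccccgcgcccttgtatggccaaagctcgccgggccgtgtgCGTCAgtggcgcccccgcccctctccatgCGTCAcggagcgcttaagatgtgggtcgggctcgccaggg
Nr4a2, chr2:57124004-57124253, minus strand: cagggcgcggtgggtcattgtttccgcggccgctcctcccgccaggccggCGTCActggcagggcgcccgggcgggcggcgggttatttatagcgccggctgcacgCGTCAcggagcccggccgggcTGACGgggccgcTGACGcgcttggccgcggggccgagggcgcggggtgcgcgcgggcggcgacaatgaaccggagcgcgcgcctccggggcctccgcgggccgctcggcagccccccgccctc
Nr4a3, chr4:48045055-48045164, plus strand: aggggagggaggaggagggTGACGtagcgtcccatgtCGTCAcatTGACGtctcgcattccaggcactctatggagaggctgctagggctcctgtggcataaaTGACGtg

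Each of the 3 windows held 4 TGACG elements. Over all 32851 promoter windows of the same length, 20.8% held at least 1 and 0.231% held 4 or more. Of the first windows of 30 genes that neuronal activity induces, 56.7% held at least 1 and 0 held 4 or more. The motifs were chosen after the sequences had been read, so the shares given here are descriptions only. The 3 windows are rich in G and C, at 72.3% for Nr4a1, 81.7% for Nr4a2 and 64.7% for Nr4a3, and among the 6056 windows within that range of GC content 0.578% held 4 or more. In Nr4a1 all 4 elements had the form TGCGTCA, which 2.12% of all windows hold and which neither the Nr4a2 nor the Nr4a3 window held. Counted from the start site at 0, their centres were at -232, -212, -68 and -39. In Nr4a2 and in Nr4a3 the element stands in both orientations. In Nr4a3, 3 of the 4 lie within a short upstream stretch, while in Nr4a2 the centres of the 4 lie between -198 and -109. The whole palindrome TGACGTCA was in none of the 3 windows and in 1.79% of all windows. The NBRE, AAAGGTCA, which is the element that NR4A receptors bind as monomers, was in none of the 3 and in 1.51% of all windows. The CArG box of serum response factor, searched by its consensus, was in none of the 3 and in 1.63% of all windows. The GC box GGGCGG was found 3 times in the Nr4a1 window, 5 times in that of Nr4a2 and 1 time in that of Nr4a3, with 35.7% of all windows holding at least 1. A match is a description of the letters only, and a missing match says nothing of the factor. The printed Nr4a1 and Nr4a2 stretches hold no annotated exon, and the last 12 bases of the Nr4a3 stretch are exonic in a transcript that starts inside the window. 1 of the 4 annotated Nr4a1 transcripts starts upstream of its window.

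The values are the log2 values that the authors deposited, in a table named as RPKM and read here as log2 of RPKM plus 1, so levels are per length of the gene and can be compared between the paralogs. The 6 libraries sum to between 487712 and 488572 RPKM after back-transformation and already had nearly the same distribution when deposited. The table gives no read totals. The depth of the libraries is therefore unknown, and no interval for counting error is given. All 6 markers of dentate granule neurons and all 9 of CA pyramidal neurons were in the table. Those of thalamus, striatum and deep cortex were too, so their presence does not check the identity of the tissue. The dentate markers summed to 111 to 157 RPKM in Control and 111 to 139 in MA, and the CA markers to 289 to 417 and 260 to 327. In MA, 5 of the 6 dentate and 8 of the 9 CA markers had a log2 fold change below 0, as did 52.7% of all tested genes. An adjusted p-value under 0.05 in limma was reached by 0 of them, and by 0.263% of all tested genes. Every MA library lay below every Control library for 3 of the 9 CA markers and 0 of the 6 dentate markers. This was so for 10.2% of all tested genes. Markers of the choroid plexus, the epithelium that lines the ventricle beside the hippocampus, moved with the groups. All 10 were higher in every library labelled MA than in every library labelled Control, as were 7.32% of all tested genes. An adjusted p-value under 0.05 in limma was reached by 5 of the 10, and by 0.165% of all tested genes as higher in MA. Their summed level was 67.5 to 423 RPKM in the Control libraries and 1790 to 5090 in the MA libraries, which is 0.0138% to 0.0867% and 0.365% to 1.04% of the whole table. None of the 10 was at 0 in all libraries. The 5 red blood cell genes were also higher in every MA library, at 3320 to 4380 RPKM against 1600 to 2020, and 3 of them passed the threshold. The part of these differences in the values below was not tested. The library labelled MA replicate 3 stands apart from the rest. Its mean Pearson correlation with its own group across the tested genes was 0.978, where the other 5 libraries had 0.984 to 0.993. It had 0 genes at a value of 0, where the other 5 had 259 to 437. Its sample quality weight in limma was 0.194, against 0.937 to 2.45 in the other 5. The source of these differences was not tested. Results that rest on MA replicate 3 are also given without it. Which libraries are MA and which are Control is taken from the sample titles and the matching column names, and no value in the table checks them. The labels and the study's text do not give several immediate early genes, Nr4a1 included, the same direction: by the labels they are lower in MA, and in the text they are higher. The study also reports qPCR of Fos, Egr1, Arc and Nr4a1, with all of them higher after MA. Its list of changed genes is headed Control vs Meth-treated mice, which leaves the order of that comparison open. The sources used here could not settle which direction is right. Control and MA below therefore name labels, and the sign of each difference holds only as far as the labels do.

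Nr4a1 RNA was lower in the libraries labelled MA, where its back-transformed level was 34.6% of that in the libraries labelled Control, a direction that rests on the labels alone. The deposited log2 values of Nr4a1 were 5.63, 5.21 and 5.12 in Control replicates 1, 2 and 3, and 3.99, 3.81 and 3.79 in MA replicates 1, 2 and 3. In RPKM these are 48.4, 36.1 and 33.9 against 14.9, 13.1 and 12.9. The groups did not overlap, and the lowest Control library stood 1.13 above the highest MA library on the log2 scale, a wider gap than the range of 0.50 within the Control group or 0.20 within the MA group. The log2 fold change, the mean of MA minus the mean of Control, was -1.45 (standard error, SE, 0.14, 95% interval -1.79 to -1.12, adjusted p = 0.0244 by limma with Benjamini-Hochberg adjustment over 13321 genes). Of all genes tested, 0.263% passed this threshold in either direction and 0.0976% passed it as lower in MA. The exact permutation test of 3 libraries against 3 gave p = 0.1 (two-sided), the smallest it can give. In bulk tissue, fewer cells that express a gene and less RNA of it per cell cannot be told apart. The call was lost when no filter was applied (adjusted p = 0.0614, limma) and in 4 of 6 fits with a library removed, those without Control replicates 1, 2 and 3 and MA replicate 2, where the limma adjusted p lay between 0.0524 and 0.106. Without MA replicate 3 it held, with a log2 fold change of -1.42 and a limma adjusted p of 0.0248.

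Nr4a2 did not pass the threshold over all genes, although its values did not overlap between the groups. Its log2 values were 4.40, 4.48 and 4.47 in the Control libraries and 4.05, 3.32 and 3.24 in MA replicates 1, 2 and 3. The Control libraries were close together, with an SD of 0.04, and the MA libraries were not, with an SD of 0.45. MA replicate 1 lay 0.35 below the lowest Control library, at 15.6 RPKM, whereas MA replicates 2 and 3 were at 9.0 and 8.4 RPKM and the Control libraries at 20.2, 21.4 and 21.1. The log2 fold change of Nr4a2 was -0.92 (SE 0.21, 95% interval -1.40 to -0.43, adjusted p = 0.204 by limma). The result turned on MA replicate 1: without it the log2 fold change was -1.17 and the limma adjusted p was 0.0329, and in the other 5 fits that left out 1 library the adjusted p was between 0.0919 and 0.617. Limma's sample quality weights also brought it past the threshold (adjusted p = 0.0315), with 586 of all genes passing under that setting instead of 35. Nr4a2 is known to be strong in the deep layers of cortex, the claustrum and the subiculum next to the hippocampus. The 9 markers fixed for those regions summed to 62.3 to 77.0 RPKM in the Control libraries and 76.8 to 83.6 in the MA libraries. The adjusted threshold in limma was passed by 0 of the 9, and by 0.263% of all tested genes. By library, the sum of these markers was 83.6, 76.8 and 81.0 in MA replicates 1, 2 and 3. The 6 thalamic markers summed to 28.7 to 46.7 RPKM in the Control libraries. In MA replicates 1, 2 and 3 they summed to 99.2, 96.5 and 50.9. The part of these differences in the Nr4a2 values was not tested.

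Nr4a3 did not pass the threshold over all genes either, and its groups did not overlap. The log2 values of Nr4a3 were 4.31, 4.01 and 4.04 in the Control libraries and 3.38, 3.47 and 3.01 in MA replicates 1, 2 and 3, or 18.8, 15.1 and 15.4 RPKM against 9.41, 10.1 and 7.04. The gap between the groups was 0.55, against a range of 0.30 within Control and 0.46 within MA. Its log2 fold change was -0.83 (SE 0.15, 95% interval -1.18 to -0.49, adjusted p = 0.104 by limma). MA replicate 3 was the lowest of the 6 libraries. Without it the log2 fold change was smaller, at -0.70, and the limma adjusted p was 0.0392. In that fit 257 of all genes passed instead of 35. With sample quality weights the values were -0.68 and 0.0221. In the other 5 fits that left out 1 library, the limma adjusted p of Nr4a3 was between 0.197 and 0.432.

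Read against the whole table, all 3 genes had every MA library below every Control library, as did 10.2% of all tested genes, and the exact permutation p of each was 0.1, the smallest the design allows. By log2 fold change, Nr4a1 was the 5th lowest of the 13321 tested genes, Nr4a2 the 26th and Nr4a3 the 38th. The median over all tested genes was -0.01.

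**Figure D1:**
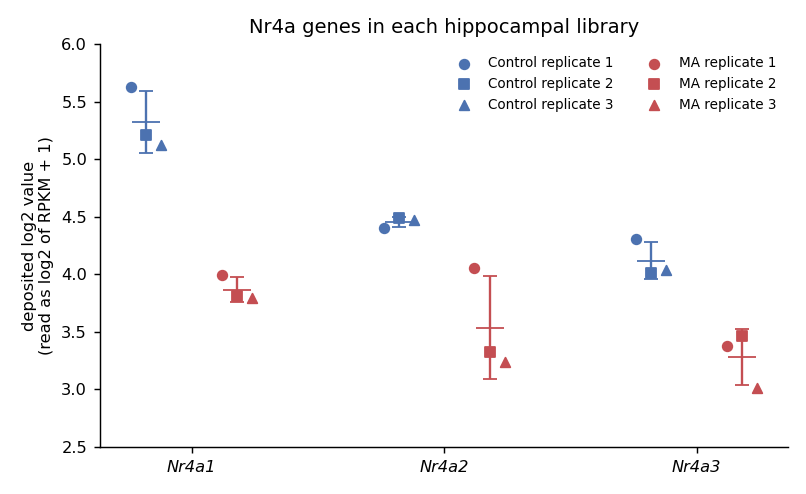
Deposited log2 values of Nr4a1, Nr4a2 and Nr4a3 (vertical axis, log2 of RPKM plus 1) in the 3 Control libraries (blue) and the 3 MA libraries (red), where the marker shape gives the replicate number and the bars give the mean ± SD. No MA library reaches a Control library of the same gene, and Nr4a2 in MA replicate 1, at 4.05, stands far above the other MA libraries.

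The order of the paralogs by level was the same in 5 of the 6 libraries at its top: Nr4a1 was the highest of the 3 in every library except MA replicate 1, where Nr4a2 was at 15.6 RPKM and Nr4a1 at 14.9. Nr4a2 was higher than Nr4a3 in every library except MA replicate 2, where they were at 9.0 and 10.1 RPKM. In the Control group the mean levels were 39.4 ± 7.8 RPKM for Nr4a1, 20.9 ± 0.64 for Nr4a2 and 16.5 ± 2.0 for Nr4a3 (SD, n = 3), each step larger than the SD of either neighbour. In the MA group they were 13.6 ± 1.1, 11 ± 4.0 and 8.8 ± 1.6 RPKM (SD, n = 3), and the neighbours in that order did not differ by more than their spread. On the log2 scale, the mean level of Nr4a1 was at the 86.7th percentile of all rows in the Control libraries and at the 68.7th in the MA libraries. For Nr4a2 the percentiles were 77.2 and 63.2, and for Nr4a3 they were 72.4 and 58.8.

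Added together, the 3 paralogs made 87.3, 72.6 and 70.4 RPKM in the Control libraries and 39.9, 32.1 and 28.3 RPKM in the MA libraries. The mean of the summed level was 76.8 ± 9.2 RPKM in Control and 33.5 ± 5.9 in MA (SD, n = 3), so the MA libraries held 43.6% of the Control level. Nr4a1 made up 55.4%, 49.7% and 48.1% of this sum in the Control libraries and 37.4%, 40.7% and 45.4% in the MA libraries, and these shares did not overlap (exact permutation test, two-sided, p = 0.1, the smallest possible). The share of Nr4a2 was between 23.1% and 30.0% in Control and between 28% and 39% in MA, with overlapping groups (exact permutation test, p = 0.5). Nr4a3 made up 21.5%, 20.8% and 21.9% of the sum in the Control libraries and 23.6%, 31.3% and 24.9% in the MA libraries, again without overlap (exact permutation test, two-sided, p = 0.1, the smallest possible). The 3 shares add up to the whole in each library, so they are not independent of each other.

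**Figure D2:**
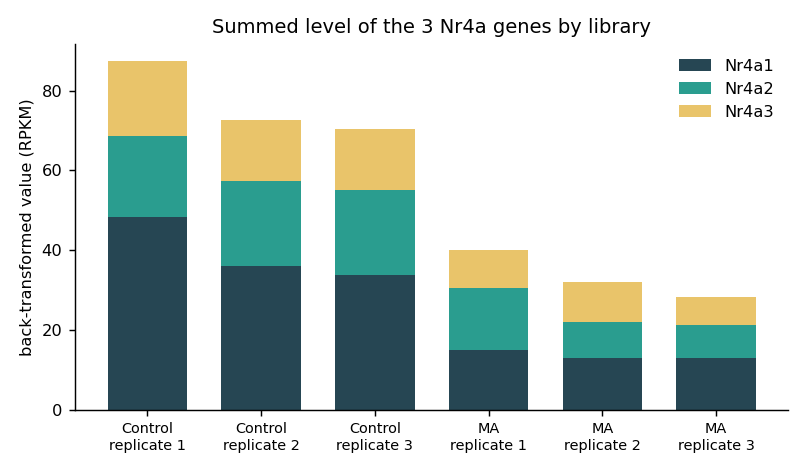
Summed back-transformed level of the 3 Nr4a genes (vertical axis, RPKM) in each library, with the part of each paralog in its own colour. The sum lies between 70.4 and 87.3 RPKM in the Control libraries and between 28.3 and 39.9 in the MA libraries, and the Nr4a1 part shrinks most.

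Whether the paralogs differed in their response was tested on the difference between 2 of their log2 values within each library, over 3 pairs. For Nr4a1 minus Nr4a2 this difference was 1.22, 0.73 and 0.65 in the Control libraries and -0.06, 0.49 and 0.56 in the MA libraries. The groups did not overlap, and the mean difference was 0.54 smaller in MA, written as -0.54 (exact permutation test, two-sided, p = 0.1, adjusted p = 0.15 over the 3 pairs). For Nr4a1 minus Nr4a3 it was 1.32, 1.20 and 1.09 against 0.61, 0.35 and 0.79, again without overlap, and the change was -0.62 (exact permutation p = 0.1, adjusted p = 0.15). For Nr4a2 minus Nr4a3 the groups overlapped, with a change of -0.08 (exact permutation p = 0.7, adjusted p = 0.7). With 3 libraries a group the test cannot give a p-value under 0.1, so it cannot show at 0.05 that Nr4a1 responded more than its paralogs. Leaving out 1 library at a time, the change in Nr4a1 minus Nr4a2 stayed between -0.65 and -0.34, and that in Nr4a1 minus Nr4a3 between -0.72 and -0.50. The change in Nr4a2 minus Nr4a3 turned positive, at 0.12, without MA replicate 2.

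The nuclear receptor superfamily offers a comparison by protein class, since its members share the DNA-binding and ligand-binding folds of the NR4A receptors and most of them are not immediate early genes. Of the 46 other mouse receptor genes listed, 39 were in the table and 30 passed the filter. In limma, 0 of the 30 had an adjusted p-value under 0.05. At an unadjusted p-value under 0.05 there were 2 lower and 2 higher, and 10.4% of all tested genes passed that threshold. Without MA replicate 3, Nr2f2 and Nr2c2 passed the adjusted threshold, both higher in MA. The median log2 fold change of the 30 was -0.06, with 17 below 0, where 52.7% of all tested genes were below 0. The Nr4a genes had the 3 lowest log2 fold changes among the 33 receptor genes tested, and the next was Rorb, a retinoid-related orphan receptor, at -0.35 (limma adjusted p = 0.435). By level, Nr4a1 was the 2nd highest of the 33 receptors in the Control libraries, after the thyroid hormone receptor gene Thra, and the 10th highest in the MA libraries. Nr4a2 went from 8th to 12th, and Nr4a3 from 12th to 13th. At the other end stood Nr2f2, an orphan receptor of interneurons and vessels. Its log2 values were 2.37, 2.66 and 3.0 in Control and 3.74, 3.74 and 3.19 in MA, a log2 fold change of 0.88 (limma adjusted p = 0.219). Without MA replicate 3 it was 1.07 (limma adjusted p = 0.0436). The 7 endothelial markers summed to 149 to 169 RPKM in Control and 164 to 203 in MA, and their part in the Nr2f2 values was not tested.

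**Figure D3:**
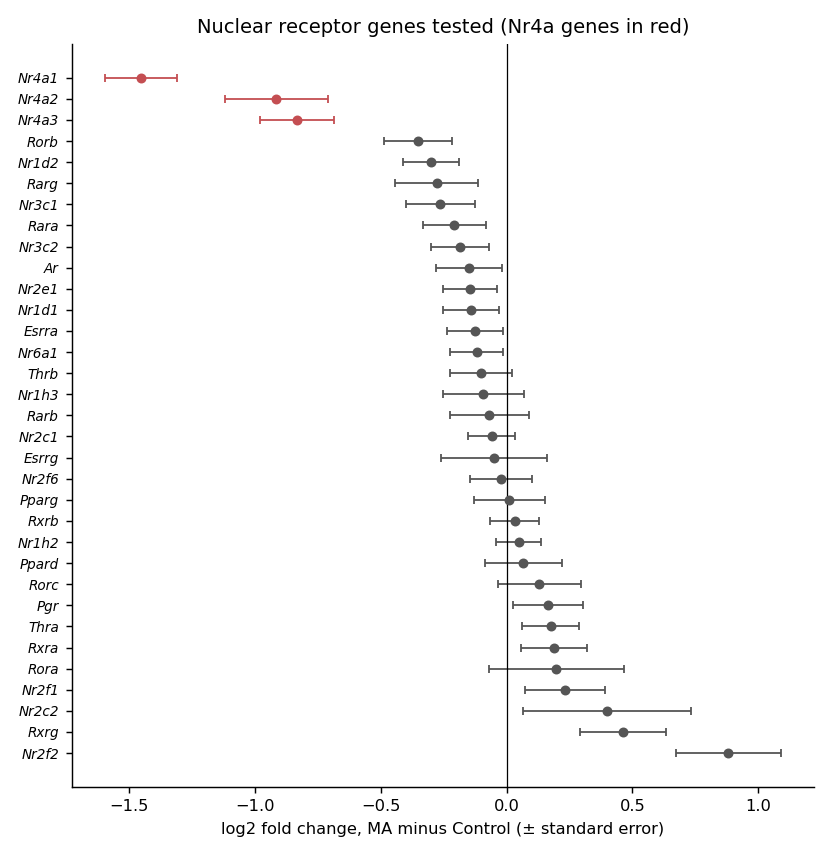
Log2 fold change (horizontal axis, MA minus Control, bars are the standard error from limma) of the 33 nuclear receptor genes tested, ordered from lowest to highest. The 3 Nr4a genes (red), from -1.45 to -0.83, stand apart from the other 30, which lie between -0.35 and 0.88.

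The retinoid X receptors are the dimer partners of Nr4a1 and Nr4a2, while Nr4a3 is not known to pair with them. Rxrb, the most abundant of them here, was at log2 values of 5.07, 5.15 and 4.90 in Control and 5.09, 4.97 and 5.16 in MA, with a log2 fold change of 0.03 (SE 0.10, adjusted p = 0.944 by limma). Rxra had a log2 fold change of 0.19 (limma adjusted p = 0.685) with overlapping groups. Rxrg was low, at 0.88, 0.80 and 1.06 in Control and 1.71, 1.31 and 1.11 in MA, and its log2 fold change of 0.46 did not pass the threshold (limma adjusted p = 0.417). With them, the list of cofactors holds proteins known to bind NR4A receptors or to repress Nr4a genes or the promoters they bind. All 20 were tested and 0 passed the adjusted threshold in limma, which 0.263% of all tested genes passed. At an unadjusted p-value under 0.05 there were 1 lower and 1 higher, and 10.4% of all tested genes passed that threshold, so the cofactors were near the background. They had a median log2 fold change of -0.05 and a range of -0.28 to 0.75. Rcor1, the corepressor CoREST that Nr4a2 is known to recruit in glia, had 2.20, 2.12 and 2.17 in Control against 1.91, 1.95 and 1.96 in MA. Its log2 fold change was -0.23 (SE 0.09, adjusted p = 0.458 by limma).

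The signalling route that switches the Nr4a genes on was covered by a list of 35 genes of the calcium, cAMP and ERK pathways and their transcription factors, all of them tested. None passed the adjusted threshold in limma, and at an unadjusted p-value under 0.05 there were 5 lower and 0 higher, while 5.46% of all tested genes were lower at that threshold. Their median log2 fold change was -0.04 and 21 of 35 were below 0. Creb1, which encodes CREB itself, was at 2.78, 2.69 and 2.99 in Control and 2.58, 2.29 and 2.26 in MA. The groups did not overlap and the log2 fold change was -0.44 (SE 0.13, adjusted p = 0.323 by limma). Srf, the factor of the CArG box, was at 4.11, 4.16 and 4.21 against 3.91, 3.96 and 3.79, a log2 fold change of -0.27 (SE 0.09, adjusted p = 0.350 by limma). With sample quality weights 1 gene of the list passed, Crem, a CREB-related gene, at -0.40 (limma adjusted p = 0.0488). RNA levels of these genes do not show how active the route was.

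Of 39 other genes that neuronal activity induces, 7 passed the adjusted threshold in limma, or 17.9%, all lower in the libraries labelled MA, where 0.0976% of all tested genes passed as lower. They were Fos, Fosb and Junb, subunits of the AP-1 factor, Egr1 and Klf10, zinc finger factors, Arc, a regulator of AMPA receptor trafficking, and Gadd45b, a stress-response gene. The median log2 fold change of the 39 was -0.48, 36 were below 0, and 26, or 66.7%, had every MA library below every Control library, where 10.2% of all tested genes did. The log2 fold changes of the 7 ran from -1.80 for Arc to -0.70 for Klf10, with Nr4a1 between Egr1 at -1.46 and Fosb at -1.32. Of the genes that did not pass, Egr2 and Egr4 had the smallest p-values (limma adjusted p = 0.0570 and 0.0628). The list was written with earlier results of these libraries known, so its direction is not independent evidence, and it too rests on the labels, which for Fos, Egr1 and Arc among others differ from the study's text. Without 1 library at a time, between 0 and 11 of the 39 passed, with 0 without Control replicate 2, Control replicate 3 or MA replicate 2 and 11 without MA replicate 3.

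NR4A receptors are known to drive chaperone genes of the endoplasmic reticulum (ER) in the hippocampus after learning. A general list of 17 genes of ER chaperones and the ER stress response was tested, which was not limited to known NR4A targets. In limma 4 passed the adjusted threshold, or 23.5%, all lower in the libraries labelled MA, where 0.0976% of all tested genes passed as lower. They were Hspa5, the main ER chaperone, at -0.90, Sdf2l1, a component of the ER chaperone complex, at -1.36, Manf, a secreted ER stress protein, at -0.85, and Xbp1, a transcription factor of the unfolded protein response, at -0.82 on the log2 scale. The median of the 17 was -0.41, 16 were below 0, and 12, or 70.6%, had every MA library below every Control library, against 10.2% of all tested genes. Pdia4 and Pdia6, protein disulfide isomerases, had log2 fold changes of -0.79 and -0.68 (limma adjusted p = 0.0628 and 0.122). This list too was written with earlier results known, and for Sdf2l1 as well the study gives the opposite direction. Between 0 and 7 of the 17 passed when 1 library was left out, and only without MA replicate 3 was the count above 0. Of the 10 listed dopamine phenotype genes, which Nr4a2 drives in the midbrain, 9 were in the table and 5 passed the filter for testing. None of the 5 passed in limma, where 0.263% of all tested genes did, and 1 was higher at an unadjusted p-value under 0.05, which 10.4% of all tested genes reached in either direction. Ddc, the decarboxylase of dopamine and serotonin synthesis, was at 2.54, 2.13 and 2.10 in Control and 2.74, 2.55 and 2.76 in MA, with a log2 fold change of 0.42 (limma adjusted p = 0.379). Aldh1a1, an aldehyde dehydrogenase, had -0.24 (limma adjusted p = 0.499).

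**Figure D4:**
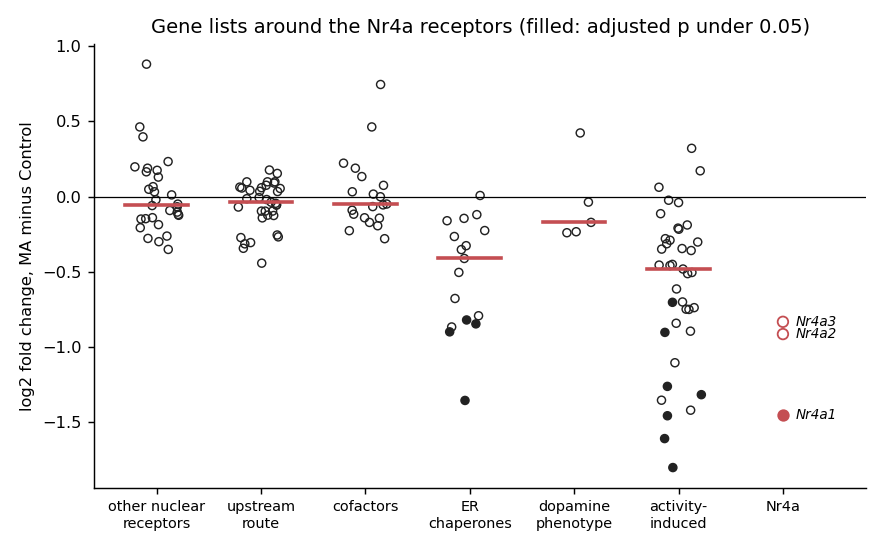
Log2 fold changes (vertical axis, MA minus Control) of the tested genes of 6 lists and of the 3 Nr4a genes, where each point is a gene, a filled point passed an adjusted p-value under 0.05 in limma and the red bar is the median of the list. The medians of the receptor, upstream and cofactor lists lie between -0.06 and -0.04, and those of the ER chaperone and activity-induced lists at -0.41 and -0.48.

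The genes whose pattern over the 6 libraries was most like that of each paralog were taken as those with the smallest Euclidean distance between the 6 log2 values after centring each gene on its own mean. For Nr4a1 they were Egr1, Egr2, Fosb, Fos and Sdf2l1, at distances of 0.218 to 0.427 and with Pearson's r of 0.973 to 0.993 over 6 libraries. The nearest, Egr1, had log2 values of 6.03, 5.75 and 5.75 in Control and 4.48, 4.25 and 4.43 in MA. For Nr4a3 they were Dusp6, Homer1, Manf, Dusp1 and Kdm7a, at distances of 0.273 to 0.348. Dusp6 and Dusp1 encode phosphatases that switch off MAP kinases, and Homer1 encodes a postsynaptic scaffold with an activity-induced short form. The genes nearest to Nr4a2 were farther off, at 0.506 to 0.572, and were Gpr3, Cml5, Etv5, Dusp1 and Homer1. Etv5, an ERK-dependent ETS factor, had log2 values of 4.40, 4.57 and 4.49 in Control and 4.18, 3.83 and 3.74 in MA, with MA replicate 1 closest to the Control libraries as in Nr4a2. Among the paralogs, the distance was 0.923 between Nr4a1 and Nr4a2, 0.836 between Nr4a1 and Nr4a3, and 0.655 between Nr4a2 and Nr4a3. The genes share the same 6 libraries and their normalization, and any pattern that follows the groups brings genes close together, so these distances are descriptions with no test.

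Exons of Junb, Pdia4, Pdia6, Manf, Dusp1, Gpr3, Kdm7a, Rcor1, Crem, Thra, Nr2c2 and Nr2f2 overlap exons of other annotated genes in GENCODE release M21, on the other strand for all but Pdia4 and Rcor1, with Manf overlapped on either strand. The use of strand in counting is not stated in the sources used here, so the values of these genes are uncertain.

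**Figure D5:**
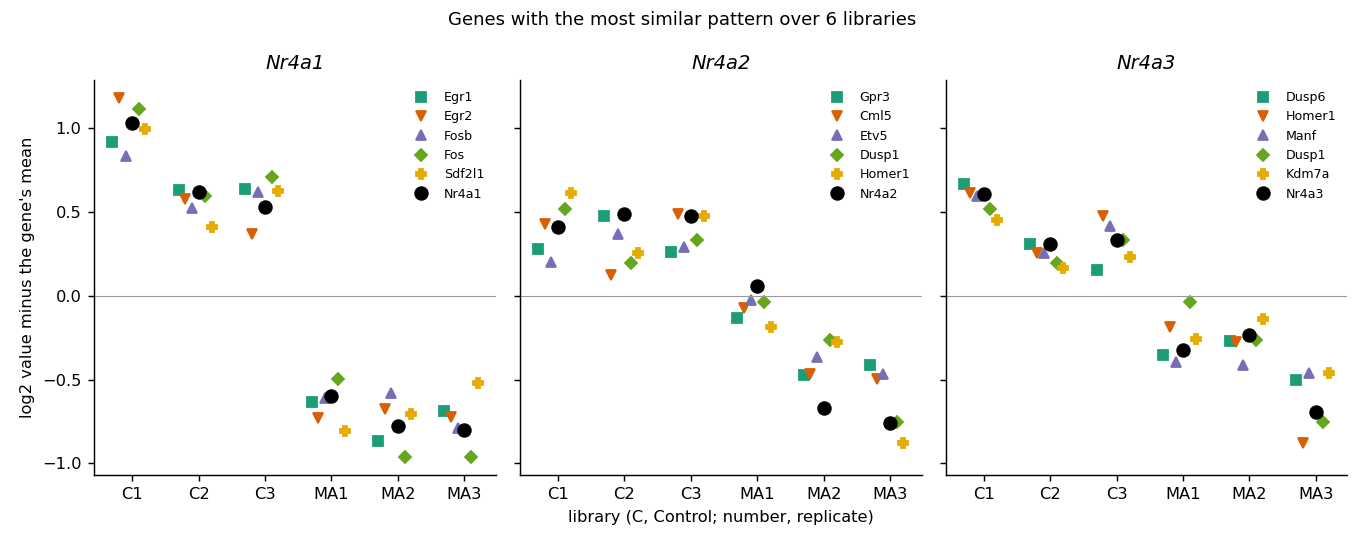
Log2 values centred on the mean of each gene (vertical axis) in the 6 libraries (horizontal axis), with 1 panel for each Nr4a gene (black circles) and the 5 genes of the most similar pattern (coloured markers). The markers of the Nr4a1 panel lie close together in each library, and in the Nr4a2 panel MA replicate 1 lies between the Control libraries and the other MA libraries.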

How the data were processed

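The authors deposited 1 table of log2 values per gene for 6 hippocampal RNA-seq libraries, named as RPKM. The study's methods name Hisat2 for alignment of the paired-end reads, featureCounts for counting and a conversion to FPKM, whereas the submitters' processing notes name Bowtie 0.12.2 with builds mm8 and mm9, so the aligner and build of the table are unclear. The log transform, read as log2 with an offset of 1, and the normalization between libraries are not described. Nothing states whether same-numbered libraries were paired.

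MA was compared with Control in limma 3.58.1 (R 4.3.3, lmFit and eBayes with trend, no covariate) over genes with at least 0.5 RPKM in at least 3 libraries, with Benjamini-Hochberg adjustment and a threshold of 0.05. The test was run on simulated independent values with planted changes, to see that it recovered them with the right sign. The simulated libraries held no outlying library and no shared library effect, so they do not check for false calls in these data. Alternatives were other offsets, filters, scaling and variance models, a replicate block, and leaving out each library. Named genes were the paralogs, the list members that passed and the 2 next by p, the retinoid X receptors, and the 5 genes most similar in pattern. The genes and lists were chosen with earlier results of these data known, and the promoter motifs after the sequences had been read. Promoters are from RefSeq (GRCm38.p6), in which all 3 genes matched by symbol. Protein sequences were not used here.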

Additional observations from a re-analysis of the deposited data

How the results depend on the processing

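The direction of all 3 Nr4a genes was the same in each of the 14 alternatives tried. All of these take the groups from the same labels and so do not check them. For each gene every MA library lay below every Control library. Leaving out 1 library, weighting libraries or changing the offset or filter therefore could not reverse that direction, so its stability is not added evidence. Nr4a1 lost its call with no filter, at a log2 fold change of -1.45, and ranged from -1.55 to -1.30 with 1 library left out. Nr4a2 gained a call with sample quality weights, at -0.95, and ranged from -1.17 to -0.77 with 1 library left out. Nr4a3 gained a call with the same weights, at -0.68, and ranged from -0.92 to -0.70. The change in Nr4a2 minus Nr4a3 ranged from -0.29 to 0.12, the only reversal. The count of 35 genes called over the table, 13 of them lower, became 3 with no filter, 20 with a mean of at least 5 RPKM, 586 with sample quality weights and 15 with the replicate block, and ranged from 0 to 257 with 1 library left out. Other nuclear receptors called, 0 at first, were 1 with sample quality weights and 0 to 2 with 1 library left out, and upstream genes were 1 with those weights. ER chaperone genes called, 4 at first, were 0 with no filter, 9 with sample quality weights, 0 with the replicate block and 0 to 7 with 1 library left out. Activity-induced genes called, 7 at first, were 2, 17 and 3 under the same settings and 0 to 11 with 1 library left out. The cause of these moves was not tested. Deviations of same-numbered libraries correlated at -0.197, -0.242 and -0.337. These values cannot decide whether a shared number marks a pair, because each group holds only 3 libraries. With the replicate block Nr4a1 kept its call (limma adjusted p = 0.0431), and the adjusted p was 0.407 for Nr4a2 and 0.228 for Nr4a3. Offsets of 0.1 and 0.5, median centring and eBayes without the trend changed no call of the 3 genes.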
